A study of Mus musculus with 12 samples.

Results

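The genes of glycolysis, lactate handling and the hypoxia pathway were followed across 4 groups of lung CD4+ T cells. A list of 36 symbols covered glucose uptake, the glycolytic enzymes, lactate export, the hypoxia-inducible factor (HIF) and its targets. Its symbols were chosen by their known roles, with earlier results of these data in view. Of these, 35 were among the 19434 genes of the count table. The symbol Pkm2, an older name of Pkm, had no row. Each of the 35 passed the filter on low counts and was tested among 11062 genes.

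The cells were helper T cells isolated by magnetic enrichment and flow sorting from the lungs of male and female C57BL/6NJ mice. Juvenile E. coli mice aspirated 2800000 colony-forming units of Escherichia coli on day 15 of life, and juvenile PBS mice aspirated phosphate-buffered saline at that age. Neonatal E. coli and neonatal PBS mice were given the same on day 5. Lungs were taken 48 h later, and each group had 3 RNA-seq libraries, each a pool of 2 juvenile or 3 neonatal mice, so n counts pools of mice. The series' title places the study in newborn pneumonia and DNA methylation, and the comparisons below ask how RNA for fuel use differed with infection and age.

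Glycolysis splits glucose to pyruvate in a preparatory phase that spends ATP and a payoff phase that returns it, and resting T cells run it slowly while activated T cells run it fast and export lactate. HIF-1 is a transcription factor whose alpha subunit is hydroxylated by Egln enzymes when oxygen is present and then marked for destruction by Vhl. When oxygen is low, or after receptor and cytokine signals in T cells, the subunit accumulates and drives genes of glucose uptake, glycolysis and blood vessel growth. These data measured RNA, so they hold neither the HIF-1 alpha protein nor the flow of glucose.

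Libraries held 6035445 to 8129983 counts, and a count of 0 allowed up to 3 counts, which was 0.374 to 0.494 CPM (counts scaled to each library's total). The label of the cells was borne out by Cd4 at 1028 to 1343 CPM and Cd3e at 1421 to 2033 CPM in every library. Transcripts of other cells were present too. Sums of 5 CD8 and cytotoxic T cell markers were 102, 86.2 and 76.4 CPM in juvenile E. coli libraries. Juvenile PBS libraries had 27.5, 95.8 and 30.9 CPM. Neonates had 39.6, 35.9 and 29.4 CPM after E. coli against 135, 42.4 and 42.8 CPM after PBS. The summed level of 15 monocyte and macrophage markers was 887 to 1319 CPM in juvenile E. coli libraries against 345 to 572 CPM in juvenile PBS libraries, and 395 to 672 CPM in neonatal E. coli libraries against 281 to 470.1 CPM in neonatal PBS libraries. Ccr2 was the highest of the 15 in every juvenile library, with 366 to 433 CPM after E. coli against 120 to 133 CPM after PBS. Chi3l3, of the same list, ran the other way in juveniles, with 0.829 to 3.65 CPM after E. coli against 28.2 to 35.9 CPM after PBS. For 10 dendritic cell markers the sums were 605 to 765 CPM after E. coli against 277 to 387 CPM after PBS in juveniles and 192 to 216 CPM after E. coli against 134 to 201 CPM after PBS in neonates. The sums of 8 CD4 T cell markers ran the other way in juveniles, with 4498 to 4851 CPM after E. coli and 5557 to 6123 CPM after PBS. Neutrophil marker sums were 9.40 to 54.9 CPM after E. coli and 0.165 to 3.31 CPM after PBS over both ages. The sums of 11 lung epithelial markers were 92.3 to 207 CPM in juvenile E. coli libraries against 36.8 to 44.1 CPM in juvenile PBS libraries, and 65.2 to 178 CPM in neonatal E. coli libraries against 49.4 to 88.5 CPM in neonatal PBS libraries, so uninfected juveniles lay below every other library, and the part of any of these cells in the results below was not tested. In juveniles Scgb1a1 and Cdh1 held most of the epithelial sums. Scgb1a1 had 45.4 to 131 CPM in infected juveniles against 8.735 to 24.2 CPM in juvenile controls. Cdh1 had 30.1 to 47.6 CPM against 6.38 to 10.7 CPM. Ager, of the same list, tended the other way, with 0.629 to 1.02 CPM against 0.989 to 3.03 CPM. In bulk libraries, fewer cells of a type and less RNA per cell cannot be told apart. The sums of 4 immature T cell markers were 137, 182 and 135 CPM in juvenile E. coli libraries against 31.7, 250.3 and 44.0 CPM in juvenile PBS libraries, and 11.1, 58.6 and 18.7 CPM in neonatal E. coli libraries against 404, 98.6 and 63.7 CPM in neonatal PBS libraries. Infected neonates thus lay below all neonatal controls, infected juveniles lay above all juvenile controls but library 2, and the part of these cells was not tested either. Juvenile PBS library 2 and neonatal PBS library 1 stood highest, so counts are also given without this pair of libraries.

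Infected juveniles carried more RNA than juvenile controls for the glucose-trapping hexokinase Hk2, for Hif1a and for the lactate exporter Slc16a3. The same held for Egln3 and for the HIF target Vegfa. Infected juveniles carried less RNA for Pdk1, which restrains the turning of pyruvate into acetyl-CoA, and for Ldhb. Among the 6 HIF targets listed, 2 rose, 1 fell and 3 were not called. Of the 35 genes, 11 rose and 3 fell in juveniles after E. coli, which is 40% of them, where 24.8% of all tested genes were called in either direction (15.4% higher and 9.42% lower). Since the list was drawn up with earlier results known, that excess is a description. Called means an adjusted p under 0.05 in edgeR's quasi-likelihood test with Benjamini-Hochberg adjustment over all tested genes. The 11 were Slc2a3, Hk2, Pfkp, Aldoa, Gapdh, Pgk1, Slc16a3, Hif1a, Egln3, Vegfa and P4ha1, and the 3 were Ldhb, Pdk1 and Bnip3l. The median log2 fold change of the 35 was 0.16, against -0.012 over all tested genes. Without juvenile PBS library 2 and neonatal PBS library 1 together, 13 were higher and 2 lower. With upper-quartile scaling 9 were higher and 4 lower, beside 1468 higher and 1415 lower over all tested genes.

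**Figure D1:**
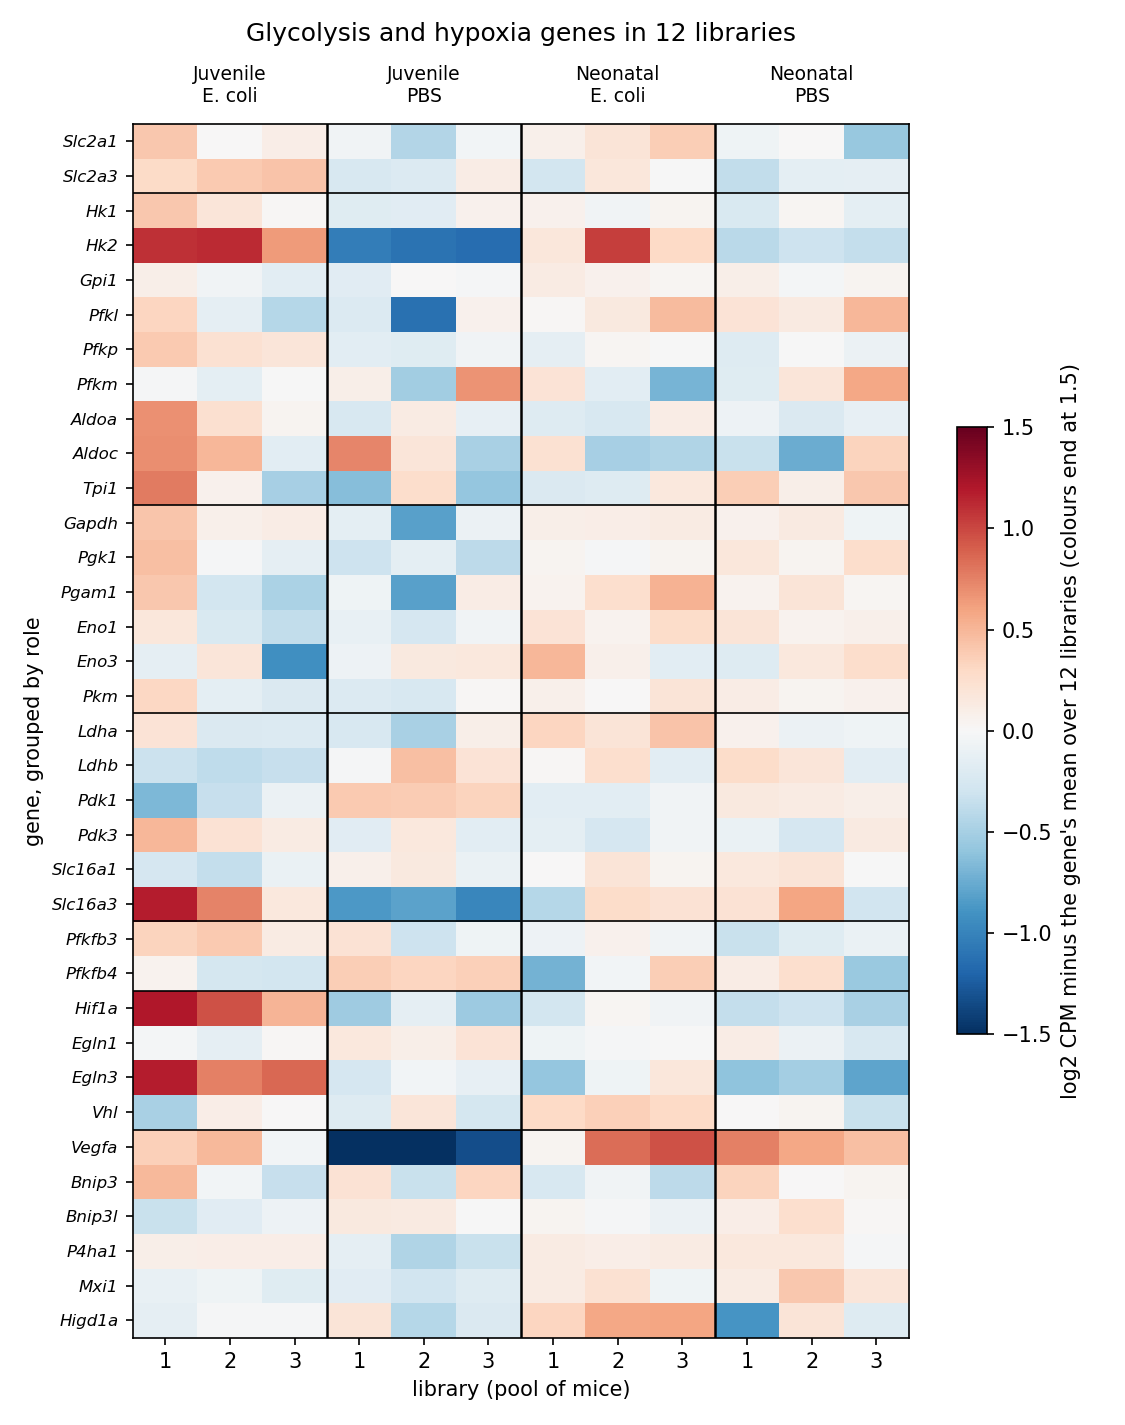
Each row is a gene, grouped by role, and each column is 1 library of the juvenile E. coli, juvenile PBS, neonatal E. coli and neonatal PBS groups. Colour gives log2 CPM minus the gene's mean over 12 libraries, with colours ending at 1.5. Juvenile E. coli library 1 had the highest median over the 35 genes (0.32), and the juvenile PBS libraries had the lowest medians (-0.059 to -0.18).

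The libraries of infected juveniles were unequal. The median of the 35 genes' log2 levels relative to their 12-library means was 0.32, 0.00062 and -0.037 in the 3 juvenile E. coli libraries, against -0.16, -0.18 and -0.059 in the juvenile PBS libraries. It was 0.038, 0.066 and 0.044 in the neonatal E. coli libraries, against 0.065, 0.045 and -0.021 in the neonatal PBS libraries. Juvenile E. coli library 1 stood above the other juvenile E. coli libraries in most glycolytic enzymes. Results that rest on it are named below.

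Promoter windows are shown for Hk2 and Pdk1, the called genes with the largest rise and the largest fall in juveniles by log2 fold change. They are also shown for Slc16a3, Hif1a and Vegfa, the other genes whose responses differed by age, which were added after their values were seen. Pdk1 and Vegfa have 2 RefSeq starts each, and the window of the upstream start is printed. The windows span 250 bases before to 50 after the RefSeq start on GRCm38.p6, read along the gene's strand. Capitals mark ACGTG or GCGTG, the core letters of sites that HIF binds, on either strand, so CACGT and CACGC are the same letters read from the other strand, and CACGTG holds ACGTG on both.
Hk2 (chr6:82774405-82774704, minus strand): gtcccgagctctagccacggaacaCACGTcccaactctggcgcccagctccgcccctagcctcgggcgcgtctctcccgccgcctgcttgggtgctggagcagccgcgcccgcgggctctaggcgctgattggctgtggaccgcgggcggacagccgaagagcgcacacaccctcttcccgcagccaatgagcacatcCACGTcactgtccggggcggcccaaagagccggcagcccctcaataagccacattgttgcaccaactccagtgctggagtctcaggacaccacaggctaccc
Pdk1 (chr2:71872974-71873273, plus strand): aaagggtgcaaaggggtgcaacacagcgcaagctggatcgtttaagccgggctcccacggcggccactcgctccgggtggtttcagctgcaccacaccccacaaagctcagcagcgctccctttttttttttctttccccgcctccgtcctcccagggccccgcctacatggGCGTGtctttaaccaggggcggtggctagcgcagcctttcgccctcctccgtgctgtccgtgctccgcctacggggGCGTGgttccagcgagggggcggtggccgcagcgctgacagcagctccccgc
Slc16a3 (chr11:120948817-120949116, plus strand): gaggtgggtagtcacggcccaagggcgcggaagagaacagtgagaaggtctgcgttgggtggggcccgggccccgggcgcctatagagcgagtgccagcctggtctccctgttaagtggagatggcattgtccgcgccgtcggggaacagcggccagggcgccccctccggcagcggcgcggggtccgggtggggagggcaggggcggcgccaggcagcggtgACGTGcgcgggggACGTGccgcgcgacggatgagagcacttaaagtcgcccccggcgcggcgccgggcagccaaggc
Hif1a (chr12:73907617-73907916, plus strand): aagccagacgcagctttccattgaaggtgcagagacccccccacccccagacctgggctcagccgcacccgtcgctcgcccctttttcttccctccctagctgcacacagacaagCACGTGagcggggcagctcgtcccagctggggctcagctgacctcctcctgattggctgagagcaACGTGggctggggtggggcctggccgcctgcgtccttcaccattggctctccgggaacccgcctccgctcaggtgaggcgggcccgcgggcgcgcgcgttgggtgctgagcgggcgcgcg
Vegfa (chr17:46032328-46032627, minus strand): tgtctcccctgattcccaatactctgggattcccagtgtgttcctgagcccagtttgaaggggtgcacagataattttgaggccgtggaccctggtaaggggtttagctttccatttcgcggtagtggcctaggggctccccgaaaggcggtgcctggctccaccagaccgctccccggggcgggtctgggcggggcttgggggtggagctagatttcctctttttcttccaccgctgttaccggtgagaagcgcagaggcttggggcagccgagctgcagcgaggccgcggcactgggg

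Hk2 and Slc16a3 held 2 matches to ACGTG each, the printed Pdk1 window held 2 to GCGTG, and Hif1a held 3 to ACGTG, a pair of which read the same CACGTG from its 2 strands. The first Vegfa window held no match, and its second, not printed, held 1 to ACGTG and 1 to GCGTG. The second Pdk1 window, not printed, held none. Over the 33 genes of the list with a RefSeq promoter entry, ACGTG or GCGTG was present in 30 (90.9%), against 67.5% of the 8324 tested genes and 46.7% of all 27025 genes with an entry. ACGTG alone was in 69.7% of the listed genes and 29.3% of tested genes, and GCGTG in 66.7% and 56%. Genes of the list that rose, fell or were not called all occur among those with a match, and a match describes letters in this window only. Slc2a3 and Bnip3l had no entry.

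Glucose enters T cells through Slc2a1 and Slc2a3, the transporters also called GLUT1 and GLUT3. Slc2a3 had 48.8, 52.6 and 54.0 CPM in juvenile E. coli libraries, against 33.9, 34.8 and 43.4 CPM in juvenile PBS libraries. Neonatal libraries had 33.1, 45.1 and 39.9 CPM after E. coli, against 31.1, 36.1 and 36.4 CPM after PBS. The juvenile groups did not overlap and the neonatal groups did, and Slc2a3 rose in juveniles by a log2 fold change of 0.47 ± 0.13 (SE, adjusted p = 0.0169). That call was lost without juvenile E. coli library 2 or juvenile PBS library 1 (adjusted p 0.0579 and 0.0743). Slc2a1, the main inducible transporter of activated T cells, had 51.1, 38.4 and 41.3 CPM after E. coli against 37.0, 28.2 and 37.1 CPM after PBS in juveniles. Its neonatal libraries had 40.6, 44.0 and 49.7 CPM after E. coli against 36.7, 38.6 and 25.8 CPM after PBS. Infected libraries of Slc2a1 lay above controls at both ages, but neither difference was called (log2 0.35 ± 0.16, adjusted p = 0.129 in juveniles, and 0.40 ± 0.16, adjusted p = 0.323 in neonates).

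Hexokinases trap glucose in the cell as glucose 6-phosphate. Hk2, the inducible hexokinase that binds mitochondria (minus strand, chr6:82725025-82774454 of GRCm38), had 23.6, 24.0 and 17.2 CPM in juvenile E. coli libraries against 5.19, 4.94 and 4.78 CPM in juvenile PBS libraries. In neonates it had 12.4, 22.8 and 13.5 CPM after E. coli against 8.18, 8.75 and 8.49 CPM after PBS. Infected and control libraries were apart at both ages, with the lowest levels in uninfected juveniles. Hk2 rose in juveniles by 2.11 ± 0.24 on the log2 scale (adjusted p = 1.8e-05), the largest fold change of the 35 genes. Hk1, the constitutive hexokinase, averaged 57.3 ± 7.73 CPM after E. coli against 46.5 ± 4.75 CPM after PBS in juveniles (SD, n = 3 pools) and was not called (log2 0.30 ± 0.12, adjusted p = 0.0794).

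Further down the preparatory phase, Pfkp and Aldoa rose in juveniles, and 6 of the 9 preparatory enzymes were not called. Pfkp encodes the platelet-type phosphofructokinase, which commits sugar to glycolysis. It had 202, 181 and 175 CPM in juvenile E. coli libraries against 138, 136 and 148 CPM in juvenile PBS libraries. Neonatal libraries had 141, 157 and 154 CPM after E. coli and 135, 153 and 145 CPM after PBS. Juvenile groups were apart and neonatal groups overlapped, and the juvenile log2 fold change was 0.40 ± 0.086 (adjusted p = 0.00354). Aldoa, the aldolase that splits the 6-carbon sugar, had 184, 135 and 118 CPM after E. coli against 96.3, 124 and 105 CPM after PBS in juveniles, and 99.8, 96.2 and 123 CPM after E. coli against 108, 98.5 and 105 CPM after PBS in neonates. Only juvenile E. coli libraries 1 and 2 lay above all juvenile controls. Its rise of 0.43 ± 0.15 (adjusted p = 0.0466) was lost when any of 9 libraries was left out, most of all without juvenile E. coli library 1, where it was 0.20 (adjusted p = 0.334). Those 9 were juvenile E. coli libraries 1 and 2, juvenile PBS libraries 1 and 3, neonatal E. coli libraries 1 and 2, and all neonatal PBS libraries. Gpi1, Pfkl, Pfkm, Aldoc and Tpi1, which encode glucose phosphate isomerase, 2 other phosphofructokinases, a brain-type aldolase and triosephosphate isomerase, had juvenile log2 fold changes of 0.021 ± 0.085, 0.29 ± 0.27, -0.23 ± 0.33, 0.16 ± 0.39 and 0.48 ± 0.28, none called. Exons of Pfkp, Pfkm, Aldoa and Tpi1 overlap a gene on the other strand (Pitrm1, Senp1, Fam57b and Spsb2), and the library kit does not mark strand.

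In the payoff phase, Gapdh and Pgk1 rose in juveniles and 4 of the 6 enzymes were not called. Gapdh makes the first NADH of the pathway and had 676, 536 and 546 CPM in juvenile E. coli libraries against 458, 289 and 477 CPM in juvenile PBS libraries. Its neonatal libraries had 538, 544 and 551 CPM after E. coli against 530.0, 554 and 483 CPM after PBS. Juvenile PBS libraries, library 2 most of all, were low, and the neonatal groups overlapped. The juvenile rise was 0.52 ± 0.14 (adjusted p = 0.0159), and 0.39 (adjusted p = 0.0993) without juvenile E. coli library 1. Pgk1, the first ATP-making step, had 142, 103 and 94.7 CPM after E. coli against 84.3, 94.4 and 79.5 CPM after PBS in juveniles, and 107, 103 and 107 CPM after E. coli against 117, 108 and 125 CPM after PBS in neonates. The groups were apart in both ages and in opposite directions, but narrowly. The third juvenile E. coli library and the second juvenile PBS library differed by less than 1 CPM. So did the first neonatal E. coli library and the second neonatal PBS library, at 107.0 and 107.5 CPM. The neonatal difference was not called (-0.14 ± 0.13, adjusted p = 0.764). Pgk1 rose in juveniles by 0.40 ± 0.13 (adjusted p = 0.0371), a call lost without any of 8 libraries and furthest without juvenile E. coli library 1 (0.17, adjusted p = 0.292). The other 7 were juvenile PBS libraries 1 and 3, neonatal E. coli libraries 1 and 2, and all neonatal PBS libraries.

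Pkm, pyruvate kinase, whose counts do not separate the M1 and M2 splice forms, had 299, 217 and 208 CPM after E. coli against 208, 204 and 243 CPM after PBS in juveniles, and 253, 241 and 275 CPM after E. coli against 259.7, 247 and 251 CPM after PBS in neonates. Juvenile E. coli library 1 was the highest of the 12 and the groups overlapped at both ages (juvenile log2 0.14 ± 0.12, adjusted p = 0.412). Pgam1, Eno1 and Eno3, a mutase and 2 enolases, had juvenile log2 fold changes of 0.14 ± 0.30, 0.011 ± 0.12 and -0.32 ± 0.29, none called. Gapdh, Pgk1, Aldoa, Tpi1, Pgam1, Eno1 and Ldha are known to have near-identical pseudogene copies, so the placing of some of their reads is uncertain.

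**Figure D2:**
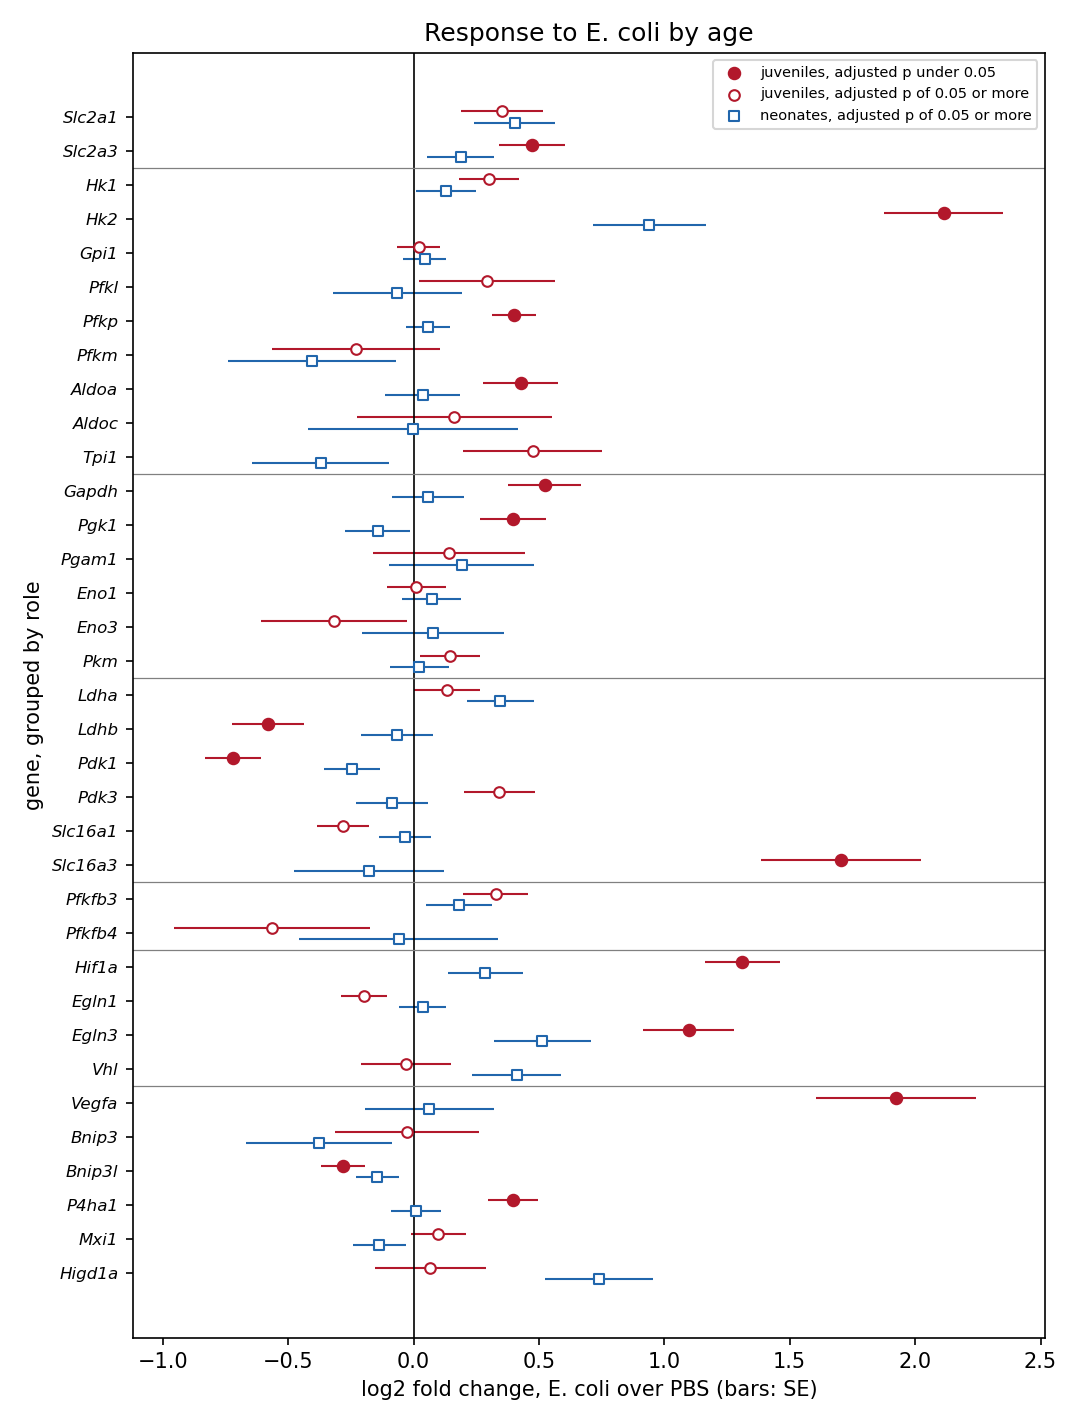
Points give the log2 fold change of E. coli over PBS for each gene with its SE, circles for juveniles and squares for neonates, and filled points have an adjusted p under 0.05. In juveniles 14 of 35 points are filled, Hk2 furthest to the right at 2.11 and Pdk1 furthest to the left at -0.72. No neonatal point is filled.

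At the pyruvate branch, Slc16a3 rose and Pdk1 and Ldhb fell in juveniles. Slc16a3 encodes MCT4, the lactate exporter of cells with fast glycolysis (plus strand, chr11:120948480-120960868), and had 14.5, 10.6 and 6.99 CPM in juvenile E. coli libraries against 3.31, 3.46 and 3.03 CPM in juvenile PBS libraries. In neonates it had 4.60, 7.60 and 7.34 CPM after E. coli against 7.29, 9.58 and 5.06 CPM after PBS. All infected juvenile libraries were at least 2 times the juvenile controls while the neonatal groups overlapped. The juvenile log2 fold change was 1.71 ± 0.32 (adjusted p = 0.00118). Slc16a1, or MCT1, the general lactate and pyruvate carrier, had 70.8, 65.9 and 78.9 CPM after E. coli against 89.5, 93.6 and 79.1 CPM after PBS in juveniles, and 84.9, 97.0 and 87.2 CPM after E. coli against 94.3, 97.1 and 84.1 CPM after PBS in neonates. Infected juveniles held the lowest libraries, and the juvenile difference was not called (-0.28 ± 0.10, adjusted p = 0.0608).

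Pdk1 phosphorylates and switches off pyruvate dehydrogenase (plus strand, chr2:71873224-71903858). It had 91.3, 114 and 136 CPM in juvenile E. coli libraries against 191, 189.5 and 183 CPM in juvenile PBS libraries, and 131, 130.0 and 139.9 CPM after E. coli against 161, 159 and 155 CPM after PBS in neonates. Every infected library lay below every control of its age. Pdk1 fell in juveniles by 0.72 ± 0.11 on the log2 scale (adjusted p = 0.000286). Pdk3, a kinase of the same enzyme, had 38.2, 31.5 and 29.6 CPM after E. coli against 24.1, 30.2 and 24.2 CPM after PBS in juveniles, and 24.5, 22.7 and 26.1 CPM after E. coli against 25.3, 22.8 and 29.7 CPM after PBS in neonates. The groups overlapped at both ages (juvenile log2 0.34 ± 0.14, adjusted p = 0.0916). Ldhb, the lactate dehydrogenase subunit typical of heart, had 42.3, 40.3 and 41.3 CPM after E. coli against 52.0, 72.2 and 61.1 CPM after PBS in juveniles, and 53.4, 62.8 and 47.4 CPM after E. coli against 63.9, 60.0 and 47.2 CPM after PBS in neonates. Infected juveniles were close together below all other libraries, and Ldhb fell in juveniles by 0.58 ± 0.14 (adjusted p = 0.00866). Ldha, the subunit typical of muscle and of lactate production, was not called (0.13 ± 0.13, adjusted p = 0.503).

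The phosphofructokinase regulators Pfkfb3 and Pfkfb4, which make or remove the activator fructose 2,6-bisphosphate, were not called in any comparison. Pfkfb3 had 56.8, 59.5 and 49.2 CPM after E. coli against 52.3, 36.3 and 43.0 CPM after PBS in juveniles, and 42.6, 47.2 and 43.3 CPM after E. coli against 35.8, 39.7 and 42.0 CPM after PBS in neonates. The juvenile groups overlapped and the neonatal groups did not (juvenile log2 0.33 ± 0.13, adjusted p = 0.0785). Pfkfb4 was low, with 2.14, 1.66 and 1.65 CPM after E. coli against 2.74, 2.64 and 2.71 CPM after PBS in juveniles and 1.15 to 2.74 CPM in the 6 neonatal libraries.

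Among the HIF genes, Hif1a and Egln3 rose in juveniles, and Egln1 and Vhl were not called. Hif1a, the oxygen-regulated subunit itself (plus strand, chr12:73901375-73947530), had 899, 759.7 and 559.5 CPM in juvenile E. coli libraries against 270.2, 356 and 269 CPM in juvenile PBS libraries. Neonates had 324, 399 and 377 CPM after E. coli against 306, 315 and 280.3 CPM after PBS. The lowest infected juvenile library was above every other library outside its group, and the neonatal groups were apart by a smaller margin. The juvenile log2 fold change was 1.31 ± 0.15 (adjusted p = 2.02e-05). Egln3, an oxygen-sensing hydroxylase that HIF itself induces (minus strand, chr12:54178981-54203860), had 36.2, 26.9 and 29.0 CPM after E. coli against 13.3, 15.3 and 14.5 CPM after PBS in juveniles, and 10.5, 15.1 and 17.9 CPM after E. coli against 10.3, 11.0 and 8.98 CPM after PBS in neonates. Infected juveniles were above all other libraries and the neonatal groups overlapped, and Egln3 rose in juveniles by 1.10 ± 0.18 (adjusted p = 0.000457). Egln1, the main hydroxylase of HIF-1 alpha, had 125, 116 and 129 CPM after E. coli against 142, 136 and 147 CPM after PBS in juveniles, and 122, 126 and 127 CPM after E. coli against 138, 120.1 and 108 CPM after PBS in neonates. The small juvenile difference was not called (-0.20 ± 0.093, adjusted p = 0.136). Vhl averaged 15.2 ± 3.17 CPM after E. coli against 15.5 ± 2.75 CPM after PBS in juveniles (SD, n = 3 pools).

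Of the 6 HIF targets, Vegfa and P4ha1 rose, Bnip3l fell, and Bnip3, Mxi1 and Higd1a were not called in juveniles. Vegfa, a secreted factor for blood vessel growth (minus strand, chr17:46016993-46032369), had 6.29, 6.91 and 4.70 CPM in juvenile E. coli libraries against 1.44, 1.48 and 1.75 CPM in juvenile PBS libraries, which were 50, 50 and 37 counts after E. coli against 10, 9 and 11 counts after PBS. Neonates had 4.98, 8.85 and 9.65 CPM after E. coli against 8.33, 7.36 and 6.70 CPM after PBS. The 3 uninfected juvenile libraries were below all other libraries, as they were in the lung epithelial marker sums, whose part in the Vegfa and P4ha1 results was not tested, and the neonatal groups overlapped. The juvenile log2 fold change was 1.92 ± 0.32 (adjusted p = 0.000469). P4ha1, a collagen prolyl hydroxylase subunit, had 60.1, 60.5 and 60.4 CPM after E. coli against 51.3, 41.4 and 44.6 CPM after PBS in juveniles, and 61.5, 60.7 and 61.5 CPM after E. coli against 63.2, 63.3 and 55.7 CPM after PBS in neonates. Here too the uninfected juveniles were the low group, and the juvenile rise was 0.40 ± 0.10 (adjusted p = 0.00997), or adjusted p = 0.0548 when only the juvenile libraries were fitted.

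Bnip3l, a receptor for the removal of mitochondria, had 231, 258 and 275 CPM after E. coli against 319, 319 and 289 CPM after PBS in juveniles, and 297, 287 and 273 CPM after E. coli against 309, 344 and 293 CPM after PBS in neonates. Infected juveniles lay below their controls, and Bnip3l fell by 0.28 ± 0.087 (adjusted p = 0.0277), a call lost without juvenile E. coli library 1 or 2 or juvenile PBS library 1 (adjusted p 0.0818 to 0.0989). Mxi1, an antagonist of Myc, had 56.6, 58.3 and 54.0 CPM after E. coli against 54.0, 50.1 and 53.4 CPM after PBS in juveniles, and 66.8, 71.8 and 58.3 CPM after E. coli against 66.5, 81.0 and 69.1 CPM after PBS in neonates. Its groups overlapped at both ages, with neonatal means above juvenile means. Bnip3 and Higd1a, a paralog of Bnip3l and a mitochondrial protein, had juvenile log2 fold changes of -0.025 ± 0.29 and 0.068 ± 0.22.

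**Figure D3:**
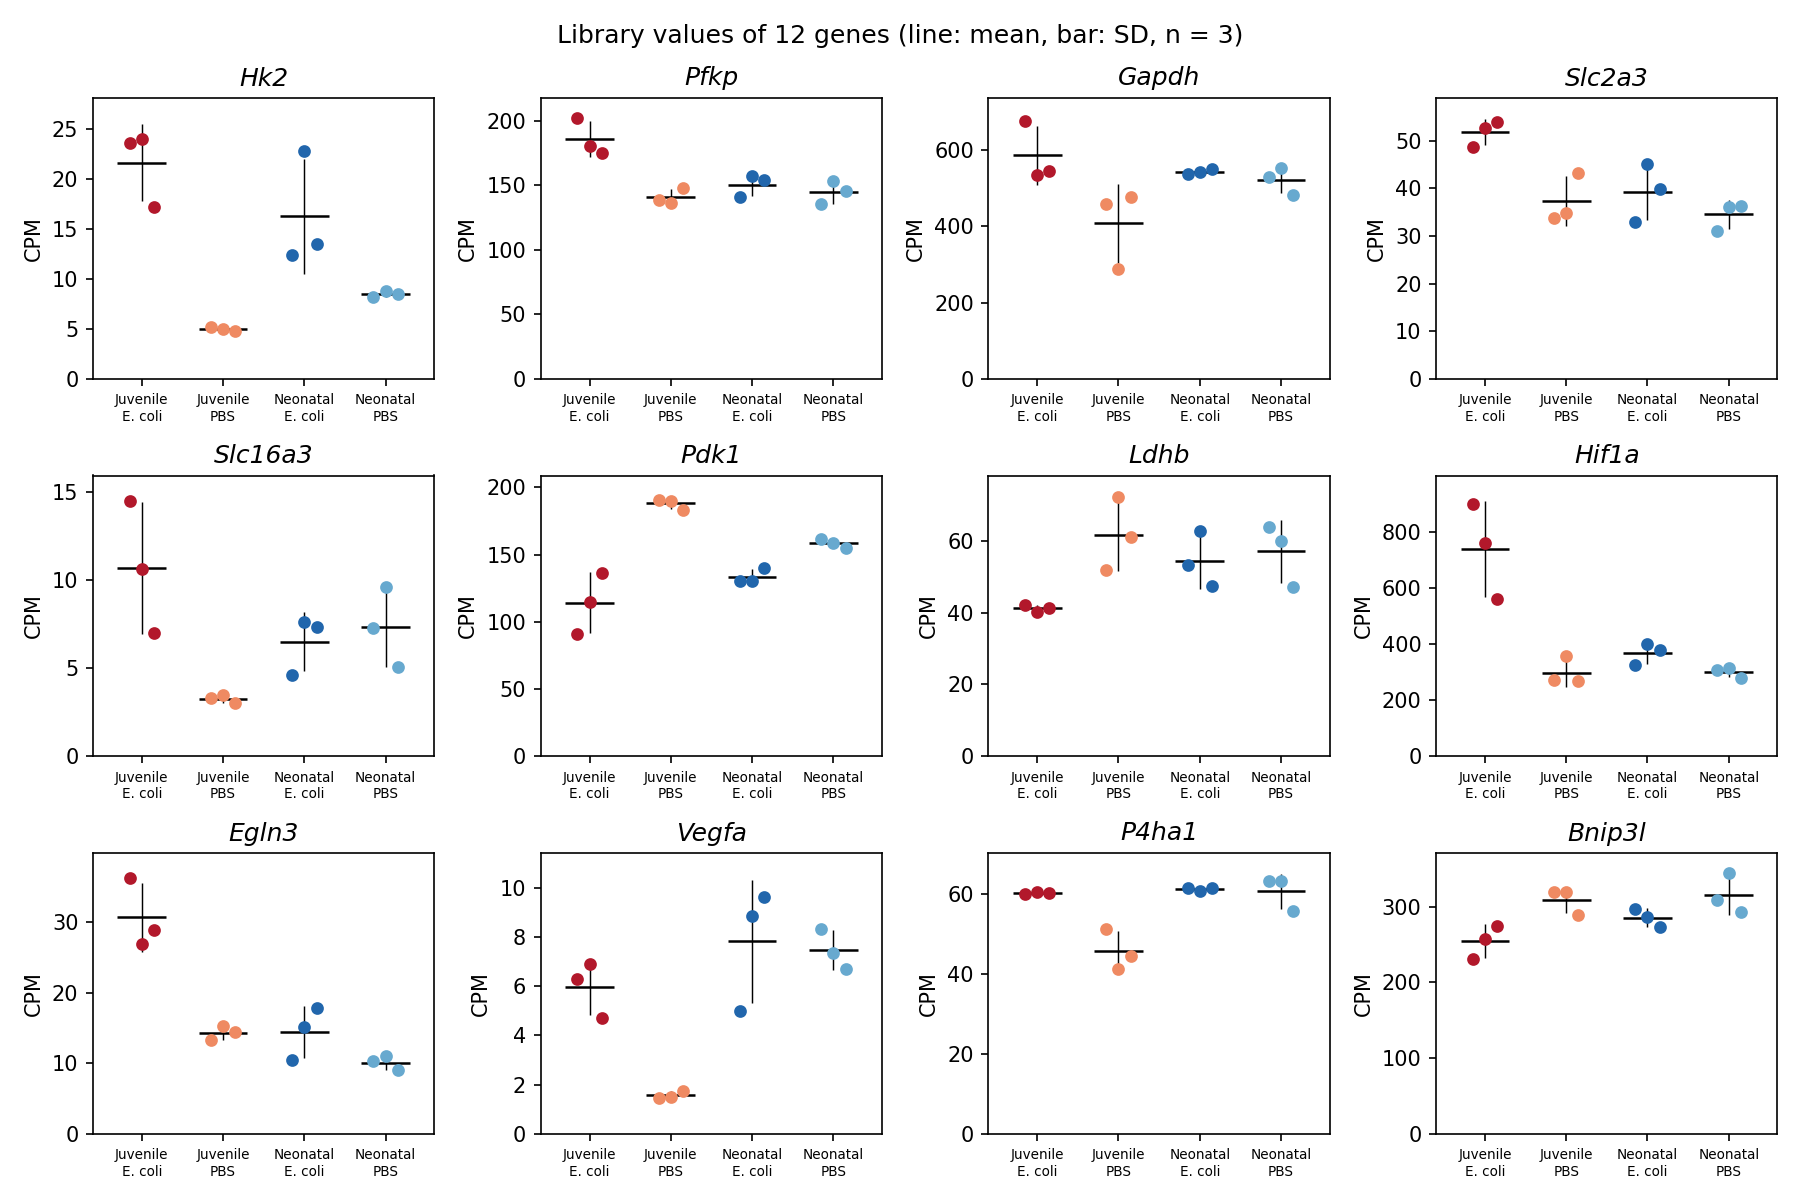
CPM in each library for 12 genes, with the juvenile E. coli, juvenile PBS, neonatal E. coli and neonatal PBS groups from left to right, the mean as a line and the SD as a bar (n = 3). Hk2 and Hif1a have their highest means in infected juveniles, and Hk2, Vegfa and P4ha1 their lowest in uninfected juveniles.

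In neonates none of the 35 genes was called after E. coli, where 1.19% of all tested genes were. At an unadjusted p under 0.05 there were 7 (20%), beside 12% of all tested genes, and DESeq2 called 1, Hk2 (adjusted p = 0.0185). The Hk2 difference was 0.94 ± 0.22 on the log2 scale (adjusted p = 0.058) in edgeR, with all infected libraries above all controls. It passed the threshold without juvenile E. coli library 3, juvenile PBS library 2 or neonatal E. coli library 1. Ldha, with 748, 685 and 809 CPM after E. coli against 625, 565 and 574 CPM after PBS, was also apart (0.35 ± 0.13, adjusted p = 0.293). With only the neonatal libraries fitted, Hk2 and Ldha were called (adjusted p 0.0491 and 0.0171). Of the 35 genes, 7 lay wholly higher and 3 wholly lower in infected neonates, where 11.2% and 10.6% of tested genes did. Higd1a had the second largest difference, 0.74 ± 0.22 (adjusted p = 0.142). Without the pair of PBS libraries high in immature T cell markers there was still no call. The median log2 fold change was 0.037, against -0.0027 over all tested genes.

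The response to E. coli was larger in juveniles than in neonates for Hk2, Slc16a3, Hif1a and Vegfa, by a test of the difference of the 2 responses. These 4 are 11.4% of the list, where 7% of all tested genes were called (5.05% higher), and each had a larger log2 fold change in juveniles. The difference was 1.88 ± 0.44 for Slc16a3 (adjusted p = 0.0176), whose responses were 1.71 ± 0.32 in juveniles and -0.18 ± 0.30 in neonates. It was 1.86 ± 0.41 for Vegfa (adjusted p = 0.0141), with 1.92 ± 0.32 in juveniles and 0.064 ± 0.26 in neonates. Both genes were lowest in uninfected juveniles. The Slc16a3 difference rests on that group's level as well as on the infected one, with means of 10.7 CPM in infected juveniles and 6.51 CPM in infected neonates. The Vegfa difference rests on the level of uninfected juveniles. Infected juveniles averaged 5.96 CPM of Vegfa, below infected neonates (7.82 CPM) and uninfected neonates (7.46 CPM). The difference was 1.17 ± 0.33 for Hk2 (adjusted p = 0.0432) and 1.02 ± 0.21 for Hif1a (adjusted p = 0.00924), whose neonatal response was 0.29 ± 0.15. Hk2 was also lowest in uninfected juveniles, at 4.97 ± 0.204 CPM against 8.47 ± 0.286 CPM in uninfected neonates (SD, 3 pools each). The Hk2 difference thus rests on that group's level too. Hif1a and Vegfa were called under all 19 alternative settings. The Slc16a3 call was lost without juvenile E. coli library 1, neonatal E. coli library 1 or neonatal PBS library 2 (adjusted p 0.0525 to 0.0624), and the count of called genes was 2 without each of these libraries. The Hk2 call was lost without any of 9 libraries (adjusted p 0.0803 to 0.114), all but juvenile E. coli library 3, juvenile PBS library 2 and neonatal E. coli library 2. It was also lost with upper-quartile scaling and held in 8 of the 19 settings. Without the pair of PBS libraries high in immature T cell markers, 3 genes were called. The monocyte and macrophage marker sums averaged 1072 CPM in infected and 461 CPM in uninfected juveniles. In neonates they averaged 513 CPM after E. coli and 356 CPM after PBS. Their lowest mean was thus in uninfected neonates, while Hk2, Slc16a3 and Vegfa were lowest in uninfected juveniles, and the part of these cells was not tested.

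After PBS, Vegfa, P4ha1 and Mxi1 were lower in juveniles than in neonates, and no gene of the list was higher. These 3 are 8.57% of the list, where 4.08% of all tested genes were called (2.32% lower). This comparison shares its juvenile PBS libraries with the juvenile response, so Vegfa and P4ha1 enter both through the same low values. The log2 fold change, juvenile over neonatal, was -2.25 ± 0.32 for Vegfa (adjusted p = 0.00106), from 1.56 ± 0.170 CPM in juveniles against 7.46 ± 0.820 CPM in neonates (SD, 3 pools each). It was -0.41 ± 0.10 for P4ha1 (adjusted p = 0.0333) and -0.46 ± 0.11 for Mxi1 (adjusted p = 0.0245). P4ha1 was lost without juvenile or neonatal E. coli library 1 or 2, juvenile PBS library 2 or 3, or neonatal PBS library 1 or 2 (adjusted p 0.0533 to 0.155). Mxi1 was lost without juvenile PBS library 1 or 3 or any neonatal PBS library (adjusted p 0.053 to 0.14). The call count was 1 without juvenile PBS library 3, neonatal PBS library 1 or neonatal PBS library 2, and 5 without juvenile E. coli library 3. Without the pair of PBS libraries high in immature T cell markers it was 2. Hk2 and Slc16a3 were also apart between the ages after PBS and not called, at -0.77 ± 0.26 (adjusted p = 0.113) and -1.17 ± 0.33 (adjusted p = 0.0599). All 6 payoff enzymes had a negative difference, with a median of -0.28, and none was called. The median over the 35 genes was -0.038, against 0.011 over all tested genes.

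After E. coli, Hif1a and Egln3 were higher in juveniles than in neonates, along with Slc2a3, Pfkp, Aldoa and Pdk3, and Slc16a1 was lower. These 7 are 20% of the list, where 17.8% of all tested genes were called (11.3% higher and 6.42% lower). With upper-quartile scaling 3 were called higher (Hif1a, Egln3 and Pfkp) and 4 lower, Slc16a1 and the newly called Eno1, Ldha and Ldhb, beside 1099 higher and 887 lower over all tested genes, while Slc2a3, Aldoa and Pdk3 were not called. Hif1a averaged 739.5 ± 171 CPM in juveniles against 367 ± 38.8 CPM in neonates (SD, 3 pools each), a log2 fold change of 1.01 ± 0.15 (adjusted p = 0.000179). Egln3 averaged 30.7 ± 4.88 CPM in juveniles against 14.5 ± 3.73 CPM in neonates, a log2 fold change of 1.09 ± 0.18 (adjusted p = 0.000503). These were the only genes of the list called in all 20 alternative settings of this comparison. The others had log2 fold changes of 0.40 ± 0.13 for Slc2a3 (adjusted p = 0.048), 0.30 ± 0.086 for Pfkp (adjusted p = 0.0236), 0.45 ± 0.15 for Aldoa (adjusted p = 0.0452), 0.44 ± 0.14 for Pdk3 (adjusted p = 0.042) and -0.32 ± 0.10 for Slc16a1 (adjusted p = 0.0449). Each of these 5 was lost without 1 of 3 to 9 libraries, juvenile E. coli libraries 1 and 2 and neonatal E. coli library 1 among them every time (adjusted p 0.0511 to 0.275). Removing neonatal E. coli library 2 or 3, any neonatal PBS library, juvenile PBS library 1 or juvenile E. coli library 3 also ended at least 1 of these calls. The count was 2 without juvenile E. coli library 2 or neonatal E. coli library 1, 4 without juvenile E. coli library 1, neonatal PBS library 1 or neonatal PBS library 3, and 11 without juvenile PBS library 2 or without that library and neonatal PBS library 1 together. Hk2, Slc16a3 and Vegfa, which differed between the ages in response, were not called here (0.41 ± 0.21, 0.72 ± 0.29 and -0.39 ± 0.26, adjusted p 0.196, 0.102 and 0.333). The dendritic cell and monocyte marker sums were higher in infected juveniles than in infected neonates, and their part was not tested.

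**Figure D4:**
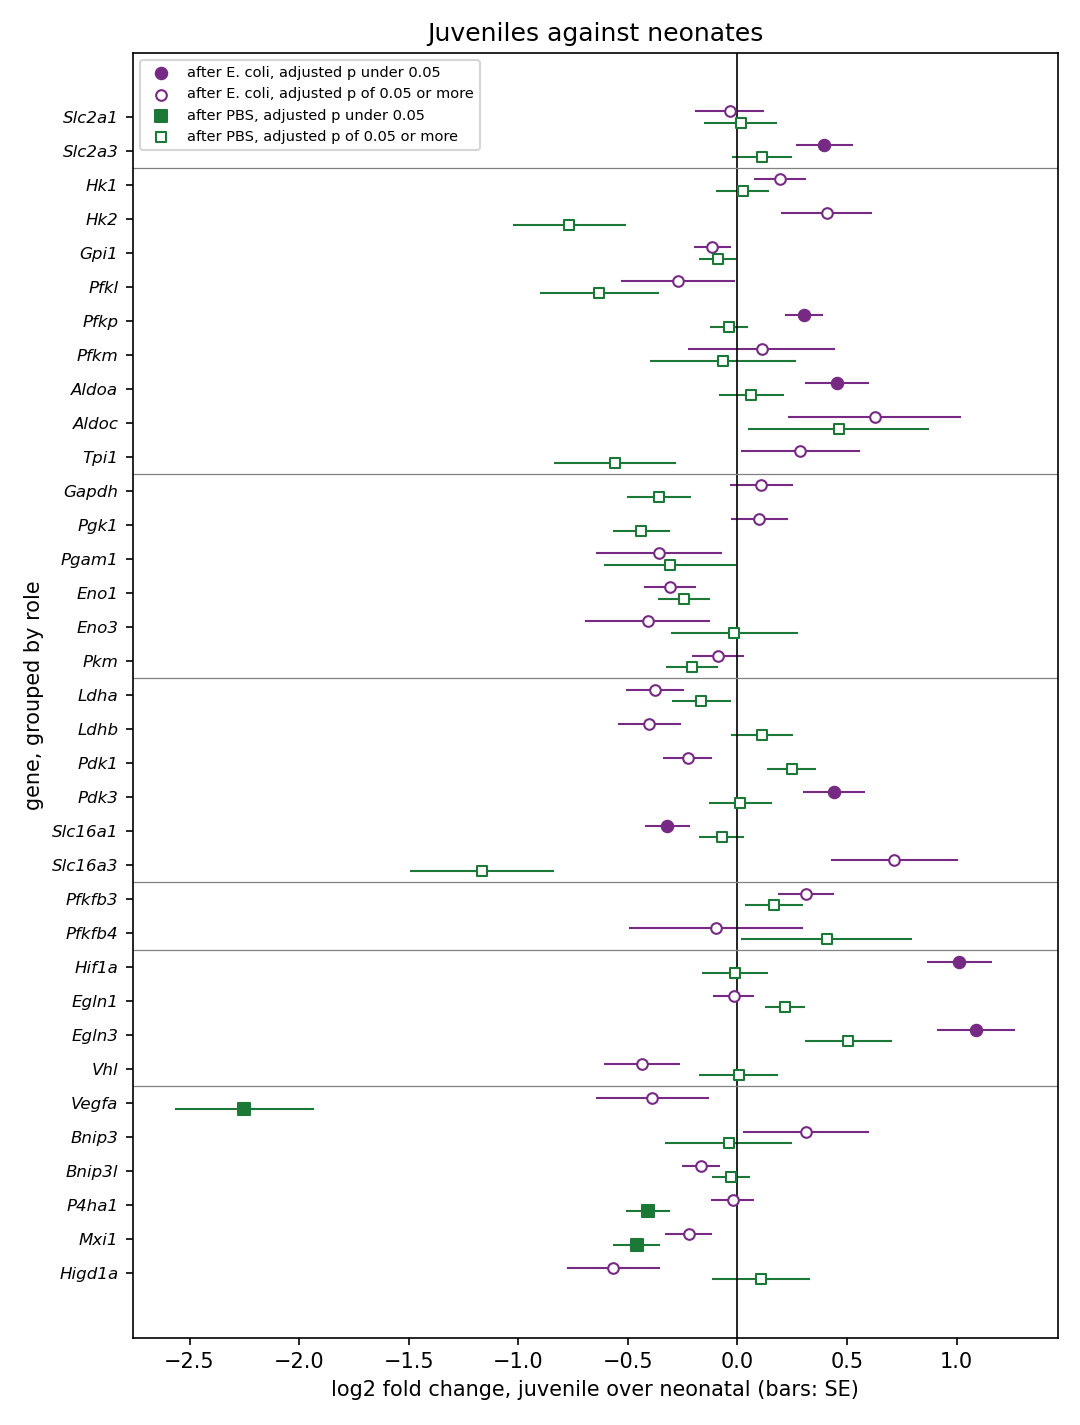
Points give the log2 fold change of juveniles over neonates with its SE, circles after E. coli and squares after PBS, and filled points have an adjusted p under 0.05. After E. coli 7 points are filled, with Egln3 (1.09) and Hif1a (1.01) furthest to the right, and after PBS the 3 filled points, Vegfa (-2.25), Mxi1 and P4ha1, are on the left.

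Levels per length, in RPKM (reads scaled to exon length and library total), allow genes to be set against each other. Gapdh and Ldha were the most abundant, with 392 ± 52.2 and 304 ± 52.2 RPKM in infected juveniles, 273 ± 69.2 and 277 ± 55.3 RPKM in uninfected juveniles, 364 ± 4.33 and 394 ± 32.5 RPKM in infected neonates and 349.6 ± 24.2 and 310.3 ± 16.9 RPKM in uninfected neonates (SD, n = 3 pools). Hif1a stood at 136 ± 31.3 RPKM in infected juveniles, against 54.8 ± 9.13 RPKM in uninfected juveniles. Hk2 and Slc16a3 were the minor forms of their pairs. Hk2 RPKM was 24.5 ± 2.21% of the hexokinase sum (Hk1 and Hk2) in infected juveniles against 8.52 ± 1.02% in uninfected juveniles, and 21.7 ± 6.60% in infected neonates against 13.9 ± 0.712% in uninfected neonates. Slc16a3 was 12.9 ± 4.46% of its sum with Slc16a1 in infected juveniles against 3.59 ± 0.0695% in uninfected juveniles, and 6.69 ± 1.39% in infected neonates against 7.24 ± 1.65% in uninfected neonates. The Hk2 share was apart between infected and control libraries at both ages, and the Slc16a3 share in juveniles. Pdk3 was 41.9 ± 8.09% of Pdk1 and Pdk3 in infected juveniles against 25.4 ± 2.37% in uninfected juveniles. Pfkp, Aldoa and Eno1 held most of their families in every group (86.6% to 91.3%, 97.7% to 98.3% and 94.3% to 95.4% of the sums).

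**Figure D5:**
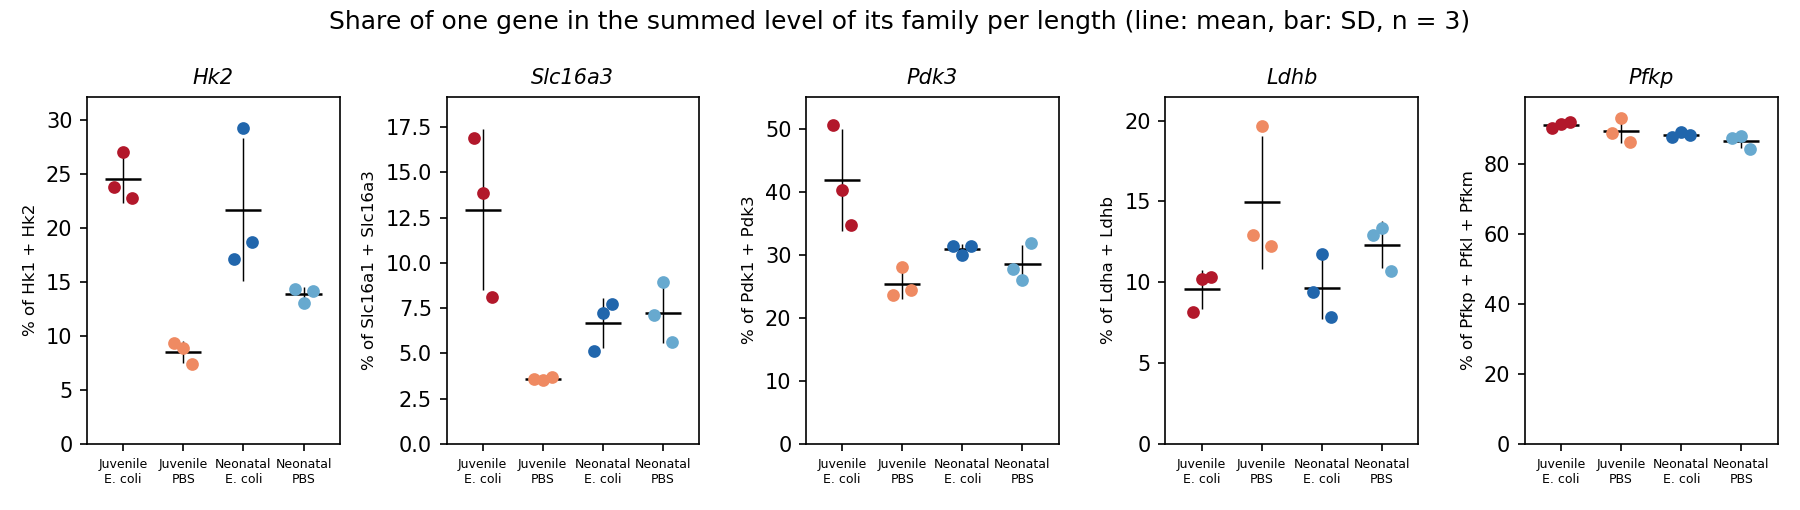
Share of 1 gene in the summed RPKM of its family in each library, in percent, for the juvenile E. coli, juvenile PBS, neonatal E. coli and neonatal PBS groups from left to right, with the mean as a line and the SD as a bar (n = 3). The Hk2 share lies at 22.8% to 27.0% in infected juveniles, against 7.37% to 9.31% in uninfected juveniles, while the Pfkp share stays between 84.3% and 93.3% in all libraries.

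Other genes of the same pathways were taken from a list of 70 symbols, of which 69 matched and 54 passed the filter. In juveniles 11 rose and 7 fell after E. coli (33.3%, beside 24.8% of all tested genes). Among 19 other HIF targets 6 rose and 2 fell. Bhlhe40, a transcriptional repressor that also marks activated T cells, had 228, 213 and 199.8 CPM in juvenile E. coli libraries against 30.7, 32.1 and 55.2 CPM in juvenile PBS libraries, and 119, 158 and 158 CPM after E. coli against 62.3, 57.5 and 67.6 CPM after PBS in neonates. It was apart at both ages, with log2 fold changes of 2.44 ± 0.18 in juveniles (adjusted p = 7.08e-07) and 1.21 ± 0.17 in neonates (adjusted p = 0.003), and a difference of 1.23 ± 0.25 (adjusted p = 0.00862). Bhlhe40 was the single gene of the 54 called in neonates. Plin2, a coat protein of lipid droplets, rose in juveniles by 1.40 ± 0.15 (adjusted p = 1.34e-05), Ero1l, an oxidase of protein folding, by 0.53 ± 0.090 (adjusted p = 0.000565), and Ddit4, an inhibitor of mTORC1, by 1.03 ± 0.21 (adjusted p = 0.00279).

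Of 6 other genes of the HIF machinery, Epas1 (HIF-2 alpha) rose in juveniles by 1.30 ± 0.34 (adjusted p = 0.0111) and 3 fell. These were Cited2, which competes with HIF for its coactivator (-0.86 ± 0.14, adjusted p = 0.000335), Hif3a (-0.78 ± 0.21, adjusted p = 0.0122) and Egln2 (-0.56 ± 0.18, adjusted p = 0.0322). Epas1 had 40.2, 44.5 and 37.9 CPM after E. coli against 22.8, 14.7 and 12.1 CPM after PBS in juveniles. Neonates had 14.3, 27.3 and 46.2 CPM after E. coli against 30.6, 20.1 and 39.0 CPM after PBS. The endothelial markers Cdh5 and Kdr had 14.2 to 22.5 and 10.4 to 29.8 CPM in infected juveniles. In juvenile controls they had 3.13 to 6.34 and 1.59 to 1.98 CPM. Pecam1, of the same marker list, ran the other way, and the part of endothelial cells was not tested. The difference of responses, juvenile minus neonatal, was -1.06 ± 0.29 for Hif3a (adjusted p = 0.0395) and -0.68 ± 0.19 for Cited2 (adjusted p = 0.0445), and with Bhlhe40 they were the 3 genes of the 54 called for it (5.56%, beside 7% of all tested genes). That count was 9 without juvenile PBS library 2, 6 without juvenile E. coli library 3 and 5 without neonatal E. coli library 3. The Hif3a and Cited2 calls were lost with a replicate block (adjusted p 0.0571 and 0.0559) and without any of 7 libraries (adjusted p 0.0589 to 0.102 for Hif3a and 0.0737 to 0.12 for Cited2). For both genes these included juvenile E. coli libraries 1 and 2, juvenile PBS library 3, neonatal E. coli libraries 1 and 2 and neonatal PBS library 1, with neonatal PBS library 2 for Hif3a and 3 for Cited2. The Egln2 fall was lost without juvenile E. coli library 1 or 2 or juvenile PBS library 1 or 3 (adjusted p 0.0927 to 0.15). Of 12 isoenzymes and side steps of glycolysis, 4 rose and Bpgm, which diverts sugar to 2,3-bisphosphoglycerate, fell by 0.54 ± 0.11 (adjusted p = 0.00268). Hk3 and Slc2a6, a hexokinase and a transporter also known from myeloid cells, rose by 2.13 ± 0.53 (adjusted p = 0.0083) and 1.51 ± 0.45 (adjusted p = 0.0223) in juveniles. Hk3 was low, with 3.14, 3.87 and 2.67 CPM in juvenile E. coli libraries against 0.865, 0.165 and 1.12 CPM in juvenile PBS libraries. The Slc2a6 rise was lost without juvenile E. coli library 1 or 2 or juvenile PBS library 1 or 2 (adjusted p 0.0552 to 0.0959). The monocyte and macrophage marker sums given above were higher in the same libraries, and their part was not tested. Of 10 genes of pyruvate entry and oxidation in mitochondria, Pdk2 alone was called and fell by 0.81 ± 0.16 (adjusted p = 0.00154), like Pdk1. None of 7 pentose phosphate genes was called in juveniles, nor at an unadjusted p under 0.05.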

How the data were processed

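Lung CD4+ T cell RNA was sequenced in 12 libraries. Per the submitters' processing notes, base calling by the authors used CASAVA 1.8.4 and alignment used STAR with the GRCm38 (mm10) build. Raw counts per gene symbol were deposited, with counting settings and annotation not given in the sources used here. Strand is not marked by the kit that the labels' protocols name.

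The filter was filterByExpr of edgeR 4.0.16 in R 4.3.3 (minimum count 10, minimum total 15), which kept 11062 genes with 99.9% of counts. Main results are from edgeR's quasi-likelihood F test over all 12 libraries with TMM scaling, no covariate, Benjamini-Hochberg adjustment over all tested genes and a threshold of 0.05 (common coefficient of variation 0.123). The test was also run on simulated counts with changes put only into the juvenile E. coli group, and no result here rests on that run. Contrasts were E. coli against PBS at each age, their difference, and juveniles against neonates after each treatment. CPM used TMM-scaled totals of tested genes, and RPKM used exon length of protein-coding transcripts in GENCODE M21, the source of gene positions. Log2 fold changes are ± SE. Figures used Python 3.11.15 and matplotlib 3.10.9. Libraries of a group differed by more than counting noise (chi-square per degree of freedom 4 to 20.7). Floors cover counting error only.

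Members and lists were chosen with earlier results of these data known. All members are named. Library values are given for those called in the neonatal response, the difference of responses or an age comparison, and for the 3 of each role with the smallest p in juveniles. Up to 4 other pathway genes per list with the smallest p are named in juveniles, and up to 2 in other contrasts. Promoters are RefSeq, GRCm38.p6. Alternatives were DESeq2 1.42.0, upper-quartile and RLE scaling, 2 filters, only the groups compared, a replicate block, each library left out and, chosen after seeing the data, 2 libraries left out together.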

Additional observations from a re-analysis of the deposited data

Results flagged for a closer look

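The responses to E. coli of juveniles and neonates differed, by the test of the difference itself, for 4 of the 35 genes. The difference, juvenile minus neonatal log2 fold change, was 1.17 for Hk2, 1.88 for Slc16a3, 1.02 for Hif1a and 1.86 for Vegfa. For Hif1a the infected juveniles stood apart from the other 3 groups, and for Hk2, Slc16a3 and Vegfa the uninfected juveniles did.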

How the results depend on the processing

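No called gene of the list changed direction in its comparison under any alternative. In all 20 alternatives of the juvenile response 8 of its 14 calls remained, namely Hk2, Pfkp, Ldhb, Pdk1, Slc16a3, Hif1a, Egln3 and Vegfa. Fitted on the groups compared alone, the calls were 9 in the juvenile response, 2 in the neonatal response and 1 between the ages after PBS. DESeq2 called 1 gene in the neonatal response and 5 between the ages after PBS, and without a filter 1 was called in neonates. With 1 library left out, calls ran from 10 to 18 in the juvenile response, 0 to 1 in the neonatal response, 2 to 6 for the difference of responses, 1 to 5 between the ages after PBS and 2 to 11 after E. coli. The list's median log2 fold change ran from 0.0723 to 0.388 in juveniles, 0.0232 to 0.0592 in neonates, 0.0453 to 0.2548 for the difference, -0.0628 to -0.0049 between the ages after PBS and -0.1018 to 0.0263 after E. coli, where its sign thus depends on the libraries used. Without juvenile PBS library 2 and neonatal PBS library 1 together, 11 genes were called between the ages after E. coli. The cause of these shifts was not tested. No called gene of the 54 other pathway genes changed direction. Their calls were 2 in neonates with DESeq2 or no filter and 4 with only the groups compared, 5 for the difference with upper-quartile scaling or without the pair of PBS libraries and 7 with DESeq2, and 3 between the ages after PBS with DESeq2, no filter or a replicate block and 2 with upper-quartile scaling. With 1 library left out they ran from 13 to 18 in juveniles, 1 to 2 in neonates, 1 to 9 for the difference, 1 to 2 between the ages after PBS and 6 to 14 after E. coli. Upper-quartile scaling moved the juvenile calls over all genes to 1468 higher and 1415 lower, against 1705 and 1042.

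Replicate numbers did not pair the libraries (correlations -0.176 to 0.223). With a replicate block the calls were 13 in the juvenile response (Aldoa lost), 0 in the neonatal response, 4 for the difference, 3 between the ages after PBS and 5 after E. coli. Depth limits Vegfa, Pfkfb4, Hk3 and the other genes under a few CPM.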

Other observations

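Some pathway genes outside the list differed between the ages. After E. coli, 5 of the 54 tested were higher and 8 lower in juveniles than in neonates (24.1%, beside 17.8% of all tested genes). Plin2, the lipid droplet protein, had 48.3, 57.2 and 41.9 CPM in infected juveniles against 17.1, 22.2 and 19.1 CPM in infected neonates, with no overlap (log2 1.33 ± 0.15, adjusted p = 1.65e-05). Pdk2, a kinase that restrains pyruvate dehydrogenase, had 10.4, 15.1 and 15.2 CPM in infected juveniles against 26.9, 23.8 and 26.3 CPM in infected neonates. Its log2 fold change was -0.92 ± 0.15 (adjusted p = 0.000591), and that of Pdp1, a phosphatase of the same enzyme, was -0.56 ± 0.13 (adjusted p = 0.00734). Stc2, a secreted glycoprotein, was lower in juveniles after both treatments. After E. coli it had 4.40, 3.73 and 6.61 CPM in juveniles against 13.7, 14.2 and 12.8 CPM in neonates (-1.46 ± 0.23, adjusted p = 0.00033), and after PBS it had 4.90, 3.30 and 3.51 CPM in juveniles against 13.1, 9.58 and 10.9 CPM in neonates (-1.51 ± 0.24, adjusted p = 0.00302). Stc2 was the single one of the 54 called between the ages after PBS. Cited2 and Egln2 were lower in infected juveniles by -0.58 ± 0.14 (adjusted p = 0.00774) and -0.68 ± 0.18 (adjusted p = 0.0147). Rpia, a pentose phosphate isomerase, was higher by 0.45 ± 0.13 (adjusted p = 0.0208). Without juvenile E. coli library 1 the count of 13 was 6 and the Cited2 call was lost (adjusted p = 0.0508), without juvenile E. coli library 2 it was also 6 and the Pdp1 call was lost (adjusted p = 0.0514), and without neonatal E. coli library 1 it was 7. Each of these 3 removals ended the Egln2 and Rpia calls, and Rpia was also lost without neonatal E. coli library 2 (adjusted p 0.0544 to 0.068 for Egln2 and 0.067 to 0.105 for Rpia).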
